A study of Mus musculus with 14 samples.

Results

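The C/EBP family and the transcription factors that act beside it in choosing a myeloid fate were followed through 7 populations of mouse blood-forming cells. The 8 genes were Cebpa, Cebpb, Cebpd, Cebpe, Cebpg, Cebpz, Spi1 (which encodes PU.1) and Gfi1. They were taken by name from the 49583 genes of the deposited expression table, whose Ensembl IDs were matched to symbols, and all 8 were found. Each had at least 1 FPKM (fragments per kilobase of a gene's transcript, relative to all mapped fragments of the library) in 2 or more libraries, so all 8 passed the filter on low values. Other genes of the same pathways were taken from lists of their partners, opponents and known targets.

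The 14 samples form 7 groups of 2, all from C57BL/6 mice labelled wild type and all sorted to a stated purity above 98%. Spleen Ter cells came from the spleens of mice with tumours and were gated as positive for Ter-119, a surface antigen of erythroid cells, and negative for CD45 and lineage antigens. Liver Ter cells passed the same gate and came from the liver of E14.5 embryos. The 4 marrow groups came from mice without a stated tumour: the MEP (megakaryocyte-erythroid progenitor) and CMP (common myeloid progenitor) groups were c-Kit+ and FcγRlo but Sca-1-, IL-7R- and Lin-, and the labels give MEP as CD34+ and CMP as CD34-. HSC (hematopoietic stem cells) were c-Kit+ and Sca-1+ with no lineage antigens, and CLP (common lymphoid progenitors) were IL-7R+ as well. Control cells were the CD45+ Ter-119- cells of the tumour-bearing spleens. The labels name no tumour type. They also leave unsaid whether a group's 2 samples are from different animals; its p-values then measure only how far those samples spread, which may be technical.

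C/EBP proteins bind DNA as dimers joined by a leucine zipper, and the members of the family can pair with one another. C/EBP alpha is needed to form granulocyte progenitors from earlier myeloid cells, C/EBP epsilon drives the last steps of neutrophil maturation, and C/EBP beta takes over granulocyte output when infection or inflammation raises demand. PU.1 works beside them in nearly all myeloid cells and holds back the erythroid factor GATA1, which holds back PU.1 in turn, while GFI1 turns off monocyte genes as neutrophils form.

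The table holds 1 mean per group, and 2 kinds of column. In the spleen Ter, liver Ter, MEP and CMP columns, each mean could be split back into its 2 libraries through its digits. Library A is the deeper of a pair and library B the other, and no replicate number is tied to either. Depths ranged up to 28537889 fragments (liver Ter library A), with the shallowest at 13413531 (CMP library B). The Control, HSC and CLP columns were made by another procedure, so their values are the authors' means with no error, their depth is unknown, and no difference that involves them was tested. Between libraries A and B, 22.2% of the 12385 tested genes differed by more than 2-fold in spleen Ter, and from 0.662% to 2.03% in the other 3 pairs. Spleen Ter library B held more macrophage RNA than library A (C1qa at 256 FPKM in B, against 29.1 FPKM in A).

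The markers do not all bear out the labels. Cd34 stood at 0.111 and 0.0273 FPKM in the MEP-labelled libraries and at 29.3 and 30.1 FPKM in the CMP-labelled ones, which is the reverse of the stated gates. The erythroid factor Klf1 was at 1.57 and 0.944 FPKM in the MEP-labelled libraries, against 5.76 and 2.68 FPKM in the CMP-labelled ones, and the neutrophil gene Ly6g at 297 and 301 FPKM, against 13.1 and 1.19 FPKM. The 6 megakaryocyte and platelet markers did not all go one way. Ppbp was at 0.113 and 0 FPKM in MEP and at 0 and 0 FPKM in CMP, Itga2b at 2.03 and 1.99 FPKM in MEP and 20.1 and 17.4 FPKM in CMP, and Gp1bb at 3.28 and 3.02 FPKM in MEP and 0.763 and 0.595 FPKM in CMP. Nfe2, a factor of erythroid cells and megakaryocytes, was at 60.4 and 59.4 FPKM in MEP. Spleen Ter held B cell RNA (Cd79a at 555 and 626 FPKM) and a mean of 10967 FPKM of the neutrophil gene S100a9 despite the gate. Spleen Ter had a mean of 3.02 FPKM of Gata1, and liver Ter 105 FPKM. HSC and CLP held means of 5728 and 7171 FPKM of S100a9. Each group is therefore called by its label only.

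Promoter sequence of RefSeq (GRCm38.p6) was at hand for Cebpa, Cebpb, Cebpg and Gfi1. Those of Cebpa and Cebpb are printed because these closely related factors had their highest levels in different groups (CMP and spleen Ter) and followed each other little (Pearson's r = 0.14 over 8 libraries on log2(FPKM + 1)). Each run is the 250 bases before the start of the gene, 5′ to 3′ on the gene's strand, at chr7:35119043-35119292 (+) for Cebpa and chr2:167688665-167688914 (+) for Cebpb. In Cebpa, capitals mark TTGCG, one form of the C/EBP half-site, and TATAAA, the core of the TATA box. In Cebpb they mark TGACG, the half-site of CREB and its relatives, read on either strand.
Cebpa: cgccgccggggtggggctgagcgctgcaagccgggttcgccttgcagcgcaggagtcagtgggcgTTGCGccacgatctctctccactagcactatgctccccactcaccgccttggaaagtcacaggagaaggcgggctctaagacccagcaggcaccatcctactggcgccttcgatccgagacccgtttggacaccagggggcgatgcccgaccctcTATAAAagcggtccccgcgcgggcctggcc
Cebpb: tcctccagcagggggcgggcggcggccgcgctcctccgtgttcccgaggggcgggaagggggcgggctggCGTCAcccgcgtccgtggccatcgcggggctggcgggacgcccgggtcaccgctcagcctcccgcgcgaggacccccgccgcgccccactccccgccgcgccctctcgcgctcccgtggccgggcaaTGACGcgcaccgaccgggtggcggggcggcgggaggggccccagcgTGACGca
Of the 32851 promoters of that length in the table, 4769 held TTGCG. For TATAAA the share was 12.4%, and for TGACG it was 17.8%. Such a match describes the letters of the window and shows no binding.

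Granule genes, the best-known targets of these factors, are set out the same way, because they separated the MEP-labelled and CMP-labelled groups in opposite directions. Each window is 30 bases of the gene's strand with the motif in capitals. The first 4 are primary granule genes with the PU.1 core AGGAAGT, at chr11:87793549-87793578 (+) for Mpo, chr10:79886216-79886245 (+) for Elane, chr10:79879561-79879590 (+) for Prtn3 and chr14:56102763-56102792 (-) for Ctsg. The other 4 are secondary granule genes with the C/EBP form TTNNGCAA on either strand, at chr9:111019206-111019235 (+) for Ltf, chr2:32387937-32387966 (-) for Lcn2, chr9:110419659-110419688 (+) for Ngp and chr9:7558399-7558428 (+) for Mmp8.
Mpo: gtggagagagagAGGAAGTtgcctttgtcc
Elane: cgtgtcccagggAGGAAGTagggctgtggc
Prtn3: caaactggaaggAGGAAGTgggacccacag
Ctsg: gagaggaagaaaAGGAAGTagtcacctgtt
Ltf: aggcaggcctaTTGGGCAAtagggtggggc
Lcn2: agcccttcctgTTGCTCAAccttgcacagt
Ngp: gtcctggtttaTTGCCCAAacctccttgcc
Mmp8: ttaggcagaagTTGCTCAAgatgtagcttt
AGGAAGT lay within 250 bases of the start in 4 of 5 primary granule genes and 2 of 8 secondary granule genes with a promoter in the table, against 7.69% of all promoters. TTNNGCAA lay there in 0 of 5 primary and 4 of 8 secondary granule genes, against 9.56% of all promoters. The forms were chosen after matches to several had been seen. With the looser AGGAAG the counts were 5 of 5 and 5 of 8 (29.5% of all promoters), and with TTNNGNAA, of which TTNNGCAA is a part, 1 of 5 and 6 of 8 (36.8%). Among the 4 factors with a promoter, both C/EBP forms and the looser PU.1 form matched 1 each. The longer PU.1 form matched 0, as did the GATA form AGATAA, which 9.99% of all promoters held. All forms were searched on both strands. A gene of a list was counted once, where any of its promoters matched, while the shares of all promoters count each promoter by itself. The 32851 promoters belong to 27025 genes, so the 2 measures are not quite alike.

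In mm10 (GENCODE M21) the 8 protein-coding genes lie at chr7:35119293-35121928 (+) for Cebpa, chr2:167688915-167690418 (+) for Cebpb, chr16:15887286-15891031 (+) for Cebpd, chr14:54710360-54712174 (-) for Cebpe, chr7:35046422-35056573 (-) for Cebpg, chr17:78919006-78937066 (-) for Cebpz, chr2:91082390-91115756 (+) for Spi1 and chr5:107716657-107726036 (-) for Gfi1. Cebpa and Cebpg are thus neighbours on the same chromosome, on opposite strands. Cebpa, Cebpb, Cebpd, Cebpg, Cebpz and Gfi1 share exon bases with other annotated genes, and since the strand of the counting is not stated, reads of such stretches cannot be told apart.

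Across the 7 groups Cebpa, Cebpb, Cebpd, Cebpe, Spi1 and Gfi1 ranged widely, and Cebpg and Cebpz narrowly. The highest group mean was 300.2-fold the lowest for Cebpe, 207-fold for Cebpa, 180.2-fold for Cebpb, 134-fold for Cebpd, 81.1-fold for Spi1 and 71.4-fold for Gfi1, against 10.1-fold for Cebpz and 5.29-fold for Cebpg. Liver Ter was the lowest group for every one of the 8 except Cebpg. The highest group differed by gene: CMP for Cebpa, spleen Ter for Cebpb, MEP for Cebpd, Cebpe, Spi1 and Gfi1, CLP for Cebpg and Control for Cebpz.

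**Figure D1:**
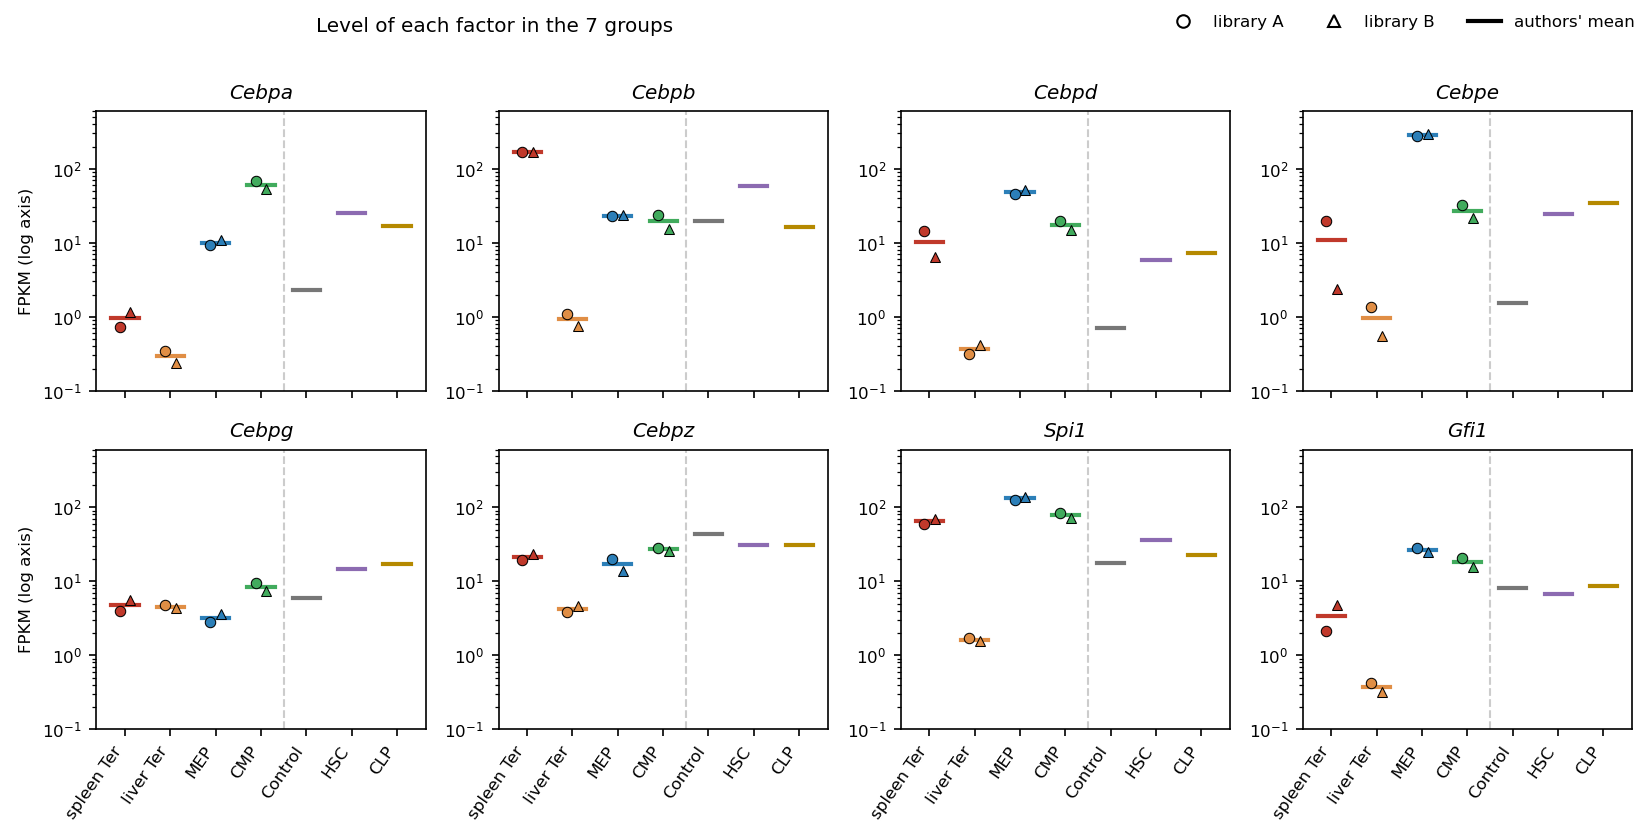
Level of each factor (FPKM, log axis) in spleen Ter, liver Ter, MEP, CMP, Control, HSC and CLP, with a circle for library A, a triangle for library B and a bar for the authors' mean; the 3 groups right of the dashed line have means only. Each factor but Cebpg has its lowest values in liver Ter, and Cebpe reaches 275 and 299 FPKM in MEP.

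A gene was called different between 2 groups with a Benjamini-Hochberg adjusted p under 0.05 in limma over all 12385 genes and a fold change of at least 2 on the log2(FPKM + 1) scale, which understates the change of low genes. Folds given beside it are ratios of mean FPKM. Of the 8 factors, 6 rose and 0 fell in spleen Ter against liver Ter, where 55.1% of all genes were called, 43.5% higher and 11.7% lower. Against MEP, 1 rose and 5 fell in spleen Ter, beside 43.1% of all genes called (23.5% higher and 19.6% lower). Against CMP, 1 rose and 2 fell there, beside 42.6% (14.4% higher and 28.2% lower). Liver Ter had 0 higher and 7 lower against MEP, beside 42.4% of all genes (8.69% higher and 33.7% lower). It had the same counts of factors against CMP, beside 60.0% (7.01% higher and 53.0% lower). MEP against CMP gave 2 higher and 2 lower, beside 31.6% (7.53% higher and 24.1% lower), and 4 calls became 1 to 3 when any 1 library of these groups was left out. The differences between these groups were thus broad, and the factors' counts are to be read against those shares.

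The median log2 difference of the 8 factors was 2.11 in spleen Ter against liver Ter, beside 0.81 for all tested genes. It was -1.61 in spleen Ter against MEP (all genes 0.10), -0.73 against CMP (all genes -0.39), -3.99 in liver Ter against MEP (all genes -0.55), -3.76 in liver Ter against CMP (all genes -1.12) and 0.41 in MEP against CMP (all genes -0.40). The shift of all genes depends on the scaling: with median-of-ratios factors it lies between -0.01 and 0.08 in all 6 comparisons. Such factors are set from the median ratio of genes, so a shift near 0 follows from the method. In whole populations of cells, fewer cells of a type and less RNA per cell cannot be told apart.

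**Figure D2:**
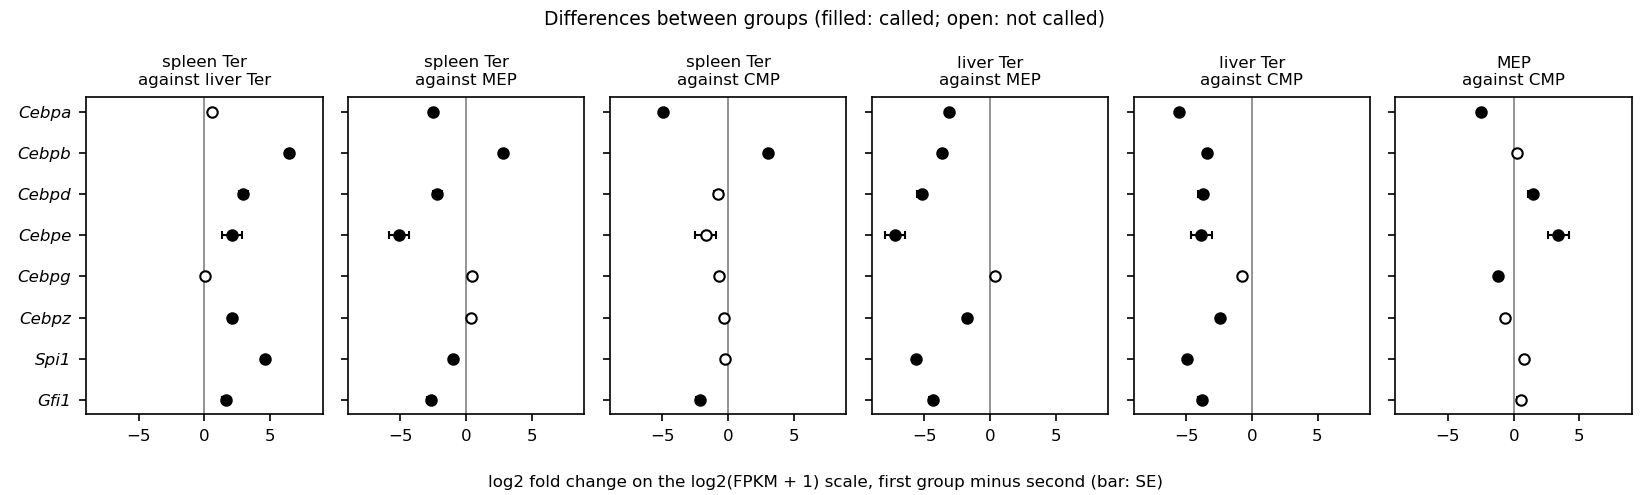
Log2 difference of each factor, first-named group minus second, on the log2(FPKM + 1) scale in the 6 tested comparisons, with bars of 1 SE; filled points were called and open points were not. The liver Ter panels lie left of 0 for all factors except Cebpg against MEP, while in MEP against CMP Cebpe and Cebpa stand on opposite sides.

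Cebpa, the factor that opens the granulocyte path, was highest in the CMP-labelled group. It was at 0.728 and 1.17 FPKM in spleen Ter, 0.346 and 0.238 FPKM in liver Ter, 9.23 and 10.8 FPKM in MEP, and 67.7 and 53.3 FPKM in CMP. The libraries of the 4 groups did not overlap, and the lowest CMP value was over every MEP value. The liver Ter values rest on 26 and 11 fragments. Cebpa fell 6.05-fold in MEP against CMP (log2 difference -2.48, SE 0.21, adjusted p = 0.000338) and 63.6-fold in spleen Ter against CMP (log2 difference -4.98, SE 0.21, adjusted p = 1.89e-05). Spleen Ter exceeded liver Ter by 0.59 (SE 0.21, adjusted p = 0.0398), which is under the 2-fold limit, and that difference was called with a pseudocount of 0.1 (1.40, adjusted p = 0.00511). Quantile normalization turned it to -0.44.

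Cebpe, the factor of late neutrophil maturation, had the highest level of all the factors in any library. It was at 19.7 and 2.39 FPKM in spleen Ter, 1.36 and 0.553 FPKM in liver Ter, 275 and 299 FPKM in MEP, and 32.5 and 21.3 FPKM in CMP. The MEP-labelled libraries were far over the rest, and the spleen Ter libraries stood apart from each other, A close to CMP and B close to liver Ter. Cebpe rose in MEP against CMP (log2 difference 3.4, SE 0.77, adjusted p = 0.0115) and fell in spleen Ter against MEP (-5.10, SE 0.77, adjusted p = 0.00149). The call against CMP was lost without MEP library A (3.46, adjusted p = 0.0608), without MEP library B (3.33, adjusted p = 0.0672) and without CMP library B (3.10, adjusted p = 0.0749). It rose in spleen Ter against liver Ter (2.13, SE 0.77, adjusted p = 0.0430), and without spleen Ter library A that difference was 0.82 with adjusted p = 0.0822. It was not called either without liver Ter library A (adjusted p = 0.0909) or B (adjusted p = 0.175), without a filter (adjusted p = 0.106), or under the 3 other scalings (1.04 to 1.61, adjusted p of 0.104 to 0.345). The difference between spleen Ter and CMP, -1.71 (SE 0.77, adjusted p = 0.0989), became -3.01 (adjusted p = 0.00147) without spleen Ter library A. In the authors' means Cebpe was at 1.53 FPKM in Control, 24.8 FPKM in HSC and 34.1 FPKM in CLP. Primary granule genes moved with Cebpe between the spleen Ter libraries: the 3 recovered in all libraries, of 6, summed to 83.5 FPKM in A and 4.58 FPKM in B. Their part in the result was not tested.

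Cebpa and Cebpe traded places between the MEP-labelled and CMP-labelled groups. The FPKM of Cebpe was 29.7 and 27.8 times that of Cebpa in the MEP-labelled libraries, and 0.480 and 0.399 times in the CMP-labelled libraries. The ratio was 27.0 and 2.03 in the spleen Ter libraries and 3.93 and 2.32 in the liver Ter libraries, where both genes were low. It was 0.675 in the Control mean, 0.994 in the HSC mean and 2.04 in the CLP mean. The MEP-labelled libraries and spleen Ter library A had the highest ratios, and the CMP-labelled libraries the lowest.

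Cebpd, a factor induced by inflammatory signals and in maturing granulocytes, ran beside Cebpe. It was at 14.4 and 6.50 FPKM in spleen Ter, 0.318 and 0.411 FPKM in liver Ter, 45.8 and 51.9 FPKM in MEP, and 19.5 and 15.0 FPKM in CMP. The order of the groups was MEP, CMP, spleen Ter, liver Ter with no overlap between them. The liver Ter values rest on 34 and 27 fragments. It rose 2.83-fold in MEP against CMP (log2 difference 1.46, SE 0.34, adjusted p = 0.0125) and 28.6-fold in spleen Ter against liver Ter (2.98, SE 0.34, adjusted p = 0.000302). The rise over CMP was not called without MEP library A (1.55, adjusted p = 0.0581), MEP library B (1.37, adjusted p = 0.0797) or CMP library B (1.28, adjusted p = 0.0830), nor with totals without globin genes (0.94). Spleen Ter and CMP differed by -0.75 (SE 0.34, adjusted p = 0.0967), and by -1.27 (adjusted p = 0.00274) without spleen Ter library A. Cebpd was at 0.712 FPKM in the Control mean, 5.90 FPKM in the HSC mean and 7.28 FPKM in the CLP mean. Over the 8 libraries its r with Cebpe was 0.94, with Spi1 0.95 and with Gfi1 0.92 on log2(FPKM + 1), across points that share 4 groups. Cebpd shares 562 exon bases with Spidr on the opposite strand, whose mean was 2.39 to 10.1 FPKM over the groups.

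Cebpb, the emergency granulopoiesis and macrophage factor, was the one C/EBP gene with its peak in spleen Ter. It was at 168 and 166 FPKM in spleen Ter, 1.10 and 0.758 FPKM in liver Ter, 22.9 and 23.5 FPKM in MEP, and 23.5 and 15.3 FPKM in CMP. The spleen Ter libraries lay close together and over every other library, while MEP and CMP overlapped. The liver Ter values rest on 47 and 20 fragments. Cebpb rose 180.2-fold in spleen Ter against liver Ter (log2 difference 6.45, SE 0.22, adjusted p = 3.91e-06), 7.19-fold against MEP (2.79, SE 0.22, adjusted p = 0.000115) and 8.60-fold against CMP (3.07, SE 0.22, adjusted p = 8.42e-05). MEP and CMP differed by 0.28 (SE 0.22, adjusted p = 0.344). The authors' means were 19.9 FPKM in Control, 58.4 FPKM in HSC and 16.3 FPKM in CLP, so the spleen Ter mean of 167 FPKM was also the highest of the 7. Cebpb shares 312 exon bases with Tmem189 on the opposite strand, whose mean was 6.34 to 16.2 FPKM.

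The spleen Ter libraries also held RNA of macrophages and neutrophils. Summed over 8 macrophage markers, library A had 137 FPKM and library B 1023 FPKM, and liver Ter had 12.9 and 9.93 FPKM. Of the 7 macrophage markers tested, 7 rose in spleen Ter against liver Ter (5 to 7 with 1 library left out), beside 43.5% of all genes. The 5 neutrophil markers with recovered libraries summed to 349 FPKM in library A and 251 FPKM in library B, and to at most 20.2 FPKM in a liver Ter library. The part of these cells in the Cebpb level was not tested.

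Cebpg, which has a leucine zipper but lacks the usual activation domains, moved least. It was at 3.93 and 5.65 FPKM in spleen Ter, 4.74 and 4.37 FPKM in liver Ter, 2.78 and 3.61 FPKM in MEP, and 9.41 and 7.40 FPKM in CMP. CMP was over the other 3 groups, and spleen Ter and liver Ter overlapped. The means of HSC (14.8 FPKM) and CLP (16.9 FPKM) were higher still, and that of Control was 5.97 FPKM. It fell in MEP against CMP (log2 difference -1.16, SE 0.22, adjusted p = 0.00615), and passed the limits in no other tested comparison. That call was lost without MEP library A (adjusted p = 0.0531) or CMP library A (adjusted p = 0.0502), and with median-of-ratios (-0.50) or quantile scaling (-0.65). Liver Ter against MEP (0.41, SE 0.22, adjusted p = 0.165) became a call of 1.26 to 1.42 under the 3 other scalings. Spleen Ter and liver Ter differed by 0.05 (SE 0.22, adjusted p = 0.876), and the sign turned with other scalings (-1.10 with median-of-ratios factors, -0.90 after quantile normalization, -0.69 with globin genes left out of the totals).

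Cebpz, named with the family but a CCAAT-binding protein without the leucine zipper that works in ribosome assembly, was broadly present. It was at 19.4 and 23.3 FPKM in spleen Ter, 3.84 and 4.66 FPKM in liver Ter, 19.9 and 13.8 FPKM in MEP, and 28.1 and 26.0 FPKM in CMP. Liver Ter lay far under the rest, spleen Ter and MEP overlapped, and CMP lay over them. The authors' mean was 42.9 FPKM in Control, the highest of the 7 groups. Cebpz rose in spleen Ter against liver Ter (log2 difference 2.09, SE 0.21, adjusted p = 0.000193), which median-of-ratios scaling lowers to 0.93. It fell in liver Ter against MEP (-1.75, SE 0.21, adjusted p = 0.000524), and that difference was between -0.74 and -0.89 under the 3 other scalings, under the 2-fold limit. In liver Ter against CMP it fell as well (-2.42, SE 0.21, adjusted p = 9.98e-05), with -0.68 under median-of-ratios scaling.

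Spi1, which encodes the ETS factor PU.1, was far over its liver Ter level in each of the other 6 groups. It was at 59.5 and 69.5 FPKM in spleen Ter, 1.70 and 1.54 FPKM in liver Ter, 126 and 138 FPKM in MEP, and 83.9 and 72.6 FPKM in CMP. The groups did not overlap, and liver Ter lay far under the rest. Spi1 rose 4.64 on the log2 scale in spleen Ter against liver Ter (SE 0.15, adjusted p = 3.51e-06) and fell by 1.02 in spleen Ter against MEP (SE 0.15, adjusted p = 0.00130). That last difference is at the 2-fold limit, with -0.91 without spleen Ter library A, -0.95 without MEP library B and -0.76 with globin genes left out of the totals. MEP exceeded CMP by 0.75 (SE 0.15, adjusted p = 0.00694), under the 2-fold limit, and by 1.49 (adjusted p = 0.000844) with median-of-ratios scaling. The authors' means were 17.4 FPKM in Control, 36.4 FPKM in HSC and 22.4 FPKM in CLP.

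Gata1, the erythroid factor that opposes PU.1, had the reverse pattern in liver Ter. Spi1 FPKM over Gata1 FPKM was 12 and 64.9 in the spleen Ter libraries and 0.0161 and 0.0149 in the liver Ter libraries. The ratio reached 106 and 205 in the MEP-labelled pair, and 10.9 and 16.7 in the CMP-labelled pair. It was 20.7 in the Control mean, 12.1 in the HSC mean and 23.2 in the CLP mean. Liver Ter was the only group, of the 7, in which Gata1 exceeded Spi1. Spleen Ter passed the same Ter-119+ gate and lay on the side of the marrow and CD45+ groups.

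**Figure D3:**
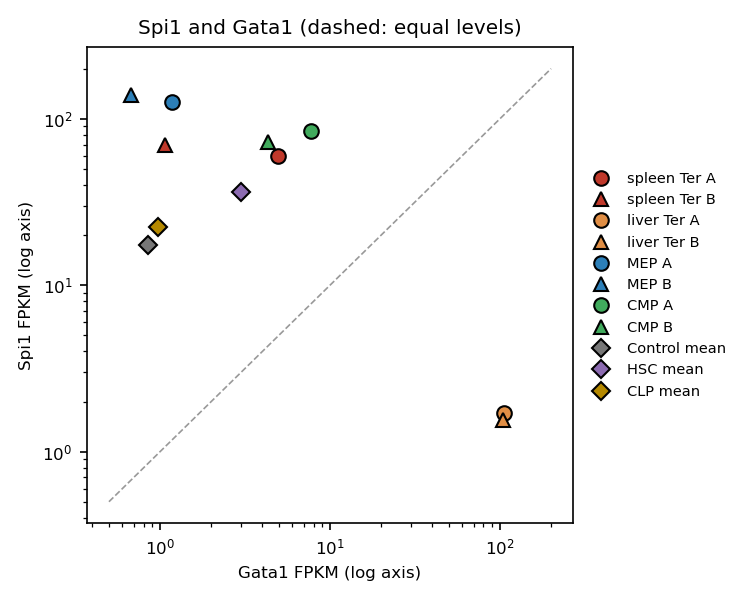
Spi1 against Gata1 (FPKM, both axes log), with circles for libraries A and triangles for libraries B, and diamonds for the authors' means of Control, HSC and CLP; the dashed line marks equal levels. The liver Ter libraries alone lie below the line, at Spi1 1.70 and 1.54 FPKM with Gata1 at 106 and 104 FPKM.

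Gfi1, the repressor that favours neutrophils over monocytes, was highest in MEP and CMP. It was at 2.12 and 4.72 FPKM in spleen Ter, 0.421 and 0.316 FPKM in liver Ter, 27.7 and 25.0 FPKM in MEP, and 20.5 and 15.7 FPKM in CMP. MEP and CMP lay over the Ter groups with a wide gap and did not overlap each other. Gfi1 fell in spleen Ter against MEP (log2 difference -2.69, SE 0.30, adjusted p = 0.000436) and against CMP (-2.17, SE 0.30, adjusted p = 0.00113). It rose in spleen Ter against liver Ter (1.63, SE 0.30, adjusted p = 0.00289), where liver Ter rests on 39 and 18 fragments and quantile normalization gives 0.57. MEP and CMP differed by 0.53 (SE 0.30, adjusted p = 0.202), and by 1.23 (adjusted p = 0.00269) with median-of-ratios scaling. The means of Control, HSC and CLP were 7.99, 6.79 and 8.54 FPKM, between those of spleen Ter and CMP.

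Gfi1b, the erythroid and megakaryocyte relative of Gfi1 that recruits the same corepressors, was at 4.01 and 0.188 FPKM in spleen Ter, 59.1 and 54.9 FPKM in liver Ter, 1.04 and 0.735 FPKM in MEP, and 4.48 and 3.10 FPKM in CMP. Gfi1 exceeded Gfi1b in the MEP and CMP libraries and in spleen Ter library B, and Gfi1b exceeded Gfi1 in liver Ter and in spleen Ter library A. Of the list of 6 corepressor genes with Gfi1b, Gfi1b fell and Ehmt2, a histone methyltransferase, rose in spleen Ter against liver Ter. Of all genes, 11.7% were lower and 43.5% higher there. In MEP against CMP, 3 of the 6 fell, namely Ehmt2 (-1.35), Hdac2 (-1.32) and the demethylase Kdm1a (-1.07), beside 24.1% of all genes. With any 1 of the 4 libraries left out, 1 of the 6 was called. With median-of-ratios scaling 0 of the 6 were called, at -0.61, -0.60 and -0.37 for these genes.

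Within the 5 C/EBP genes whose products have a leucine zipper, each of the groups with recovered libraries had its own main transcript. Cebpb made up 81.2% and 91.4% of their summed FPKM in the spleen Ter libraries, and Cebpg 60.3% and 69.0% in those of liver Ter. Cebpe took 77.3% and 76.9% in MEP, and Cebpa 44.4% and 47.5% in CMP. The sum itself was 206 and 182 FPKM in spleen Ter, 7.86 and 6.33 FPKM in liver Ter, 355 and 389 FPKM in MEP, and 153 and 112 FPKM in CMP. The share of Cebpg in liver Ter thus came with a level of Cebpg (4.74 and 4.37 FPKM) that overlapped the level in spleen Ter. In the authors' means Cebpb led in Control (65.5%) and HSC (45.3%) and Cebpe in CLP (37.4%).

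**Figure D4:**
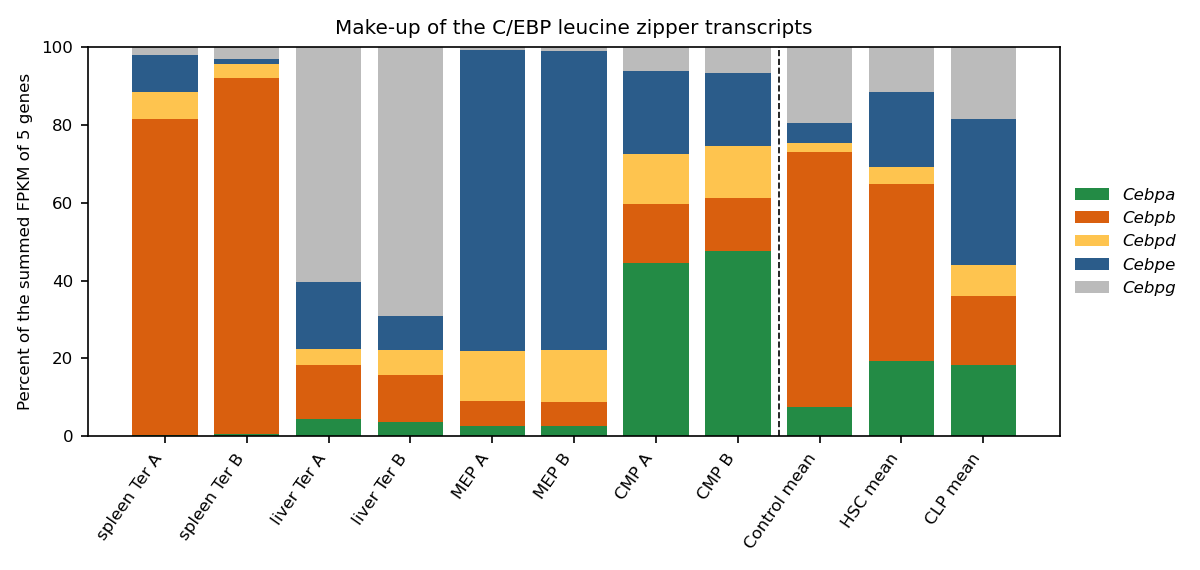
Share of each of 5 C/EBP genes in their summed FPKM (percent), by library in 4 groups and by authors' mean for Control, HSC and CLP. Cebpb fills most of the spleen Ter bars, Cebpg of the liver Ter bars and Cebpe of the MEP bars, while Cebpa has its largest share, 44.4% and 47.5%, in CMP.

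The partners and regulators of C/EBP proteins were measured for 8 genes, of which 7 were tested. In spleen Ter against liver Ter 4 rose and 1 fell, beside 43.5% of all genes higher and 11.7% lower, with a median log2 difference of 3.35 beside 0.81 for all genes. Atf3, a stress-induced zipper protein, rose by 5.0 (SE 0.40), Nfil3, a zipper repressor, by 3.67 (SE 0.20) and Trib1, which leads C/EBP alpha protein to destruction, by 3.5 (SE 0.30). Trib3, which the stress factor ATF4 induces, fell by 1.09, and was not called without spleen Ter library A (-0.69) or liver Ter library A (adjusted p = 0.0513). In MEP against CMP 1 of the 7 was called, beside 31.6% of all genes (7.53% higher and 24.1% lower). This was Trib1, which rose by 2.0 (SE 0.30, adjusted p = 0.00230). Trib1 was at 80.3 and 54.4 FPKM in MEP and at 20.5 and 12.2 FPKM in CMP, with no overlap. Trib1 RNA was thus higher and Cebpa RNA lower in MEP, and C/EBP alpha protein was not measured.

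The ETS relatives and the partners of PU.1 numbered 8, of which 6 were tested. All 6 tested rose in spleen Ter against liver Ter, beside 43.5% of all genes, with a median of 4.47 (all genes 0.81): Ets1 (5.17), Irf8 (4.83), Spib (4.53), Irf4 (4.41), Fli1 (4.03) and Spic (3.03). In MEP against CMP 1 of the 6 rose and 1 fell, beside 7.53% of all genes higher and 24.1% lower. The list's median there was 0.39 (all genes -0.40). Ets1 rose, at 26.8 and 30.7 FPKM in MEP and 6.85 and 3.79 FPKM in CMP. Irf8, which turns PU.1 toward monocyte and dendritic cell genes, fell in MEP against CMP by 4.89 (SE 0.33, adjusted p = 0.000216). Irf8 was at 2.79 and 1.93 FPKM in MEP and at 93.7 and 102 FPKM in CMP, while Spi1 was high in both. Spib and Irf4 are also B cell genes, and Spic a gene of iron-handling macrophages. The 6 B cell markers summed to 1009 and 1326 FPKM in spleen Ter, and to 1.45 and 1.65 FPKM in liver Ter. Their sums were 36.4 and 38.3 FPKM in MEP, and 28.5 and 15.8 FPKM in CMP. Spleen Ter also held T cell RNA. The 6 T cell markers summed to 241 and 314 FPKM there, and to 2.70 and 2.77 FPKM in liver Ter. In MEP they summed to 4.10 and 3.98 FPKM, and in CMP to 2.31 and 0.901 FPKM. The part of B cells and T cells in the levels of this list was not tested.

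The monocyte and granulocyte fate factors numbered 10, all tested, and 8 of them rose in spleen Ter against liver Ter, beside 43.5% of all genes (median 2.51, all genes 0.81), led by Id2 (5.90), Egr1 (5.35) and Rara (3.46). Id1 (1.52) was not called there under any of the 3 other scalings, nor Runx1 (1.54) under median-of-ratios and quantile scaling. In MEP against CMP 2 rose, Id2 (2.24) and Id1 (1.60), both inhibitors of helix-loop-helix factors. There 4 fell, namely the monocyte factor Klf4 (-2.81), Zeb2 (-2.76), the progenitor factor Myb (-2.07) and Runx1 (-1.13). Both counts stand beside 7.53% of all genes higher and 24.1% lower. Runx1 was not called with median-of-ratios (-0.44) or quantile scaling (-0.74), nor without MEP library A (adjusted p = 0.0613) or CMP library A (adjusted p = 0.0649), and the list's median of -0.58 became 0.09 with the first of these. Klf4 was at 6.91 and 7.74 FPKM in MEP and 57.8 and 57.0 FPKM in CMP.

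Of the 8 erythroid opponents 7 were tested. In spleen Ter against liver Ter 6 fell and 0 rose, beside 11.7% of all genes lower, with a median of -3.96 (all genes 0.81). Tal1 fell by 5.62 with every library and by 5.56 to 5.68 with 1 left out. Klf1 was at 17.5 and 0.584 FPKM in the spleen Ter libraries and 319 and 315 FPKM in those of liver Ter, and the size of its difference (-5.88, SE 1.02) rests on the library, with -4.10 without spleen Ter library B and -7.65 without A. Gata1 (-4.91) was at -4.15 and -5.67 in the same settings. In liver Ter against MEP 6 rose, beside 8.69% of all genes, and 1, Gata2, fell. In MEP against CMP 5 fell and 0 rose: Gata2 (-2.58), Gata1 (-1.83), Tal1 (-1.73), Zfpm1 (-1.71) and Lmo2 (-1.57). Of these, Gata1 (-1.20) and Lmo2 (-0.82) were not called with median-of-ratios scaling, which left 3 lower and made 1 higher, nor Gata1 (-1.21) after quantile normalization. Gata1 was not called there when any 1 of the 4 libraries was left out (-1.48 to -2.19), nor Zfpm1 without MEP library A (-1.68, adjusted p = 0.0501). The other 2 tested were not called: Klf1 (-1.16, SE 1.02, adjusted p = 0.399) and Nfe2 (0.66, SE 0.22, adjusted p = 0.0472), which was at 60.4 and 59.4 FPKM in MEP and 40.0 and 35.3 FPKM in CMP. The list's median there was -1.71, beside -0.40 for all genes and 24.1% of all genes lower.

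The receptor genes that C/EBP alpha and PU.1 switch on numbered 8, all tested. In spleen Ter against liver Ter 8 rose, beside 43.5% of all genes, with a median of 3.52 (all genes 0.81). The largest were Cd14 (5.59), Fcgr3 (4.62) and Csf3r, the G-CSF receptor (4.44). Il6ra (1.60) was not called with median-of-ratios (0.83) or quantile scaling (0.52). In liver Ter against MEP 8 fell, beside 33.7% of all genes (median -4.96, all genes -0.55), and against CMP 8, beside 53.0% (median -4.60, all genes -1.12), and 7 or 8 did under the other scalings. In MEP against CMP Itgam (4.03), Csf3r (1.42) and Csf2ra (1.06) rose, while Csf1r, the M-CSF receptor (-2.43), and Il6ra (-1.22) fell. These counts stand beside 7.53% of all genes higher and 24.1% lower. Neither Csf1r nor Il6ra was called when any 1 of the 4 libraries was left out (adjusted p = 0.0750 to 0.164 for these refits), and Csf2ra was at 0.95 without CMP library A and 0.93 without MEP library A. Csf1r was at 8.09 and 62.6 FPKM in spleen Ter, and its SE was 0.79. The MEP and CMP split of receptors moves with the scaling: median-of-ratios factors gave 5 higher and 0 lower, and totals without globin genes 1 higher and 2 lower.

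In the authors' means, granule genes split by stage. The primary granule genes Mpo, Elane, Prtn3 and Ctsg, made by promyelocytes, had authors' means of 219, 762, 272 and 83.1 FPKM in MEP and of 1753, 2673, 1131 and 1001 FPKM in CMP. The secondary granule genes Ltf, Camp, Lcn2 and Ngp, which need C/EBP epsilon in mice, had means of 6403, 14922, 3909 and 34069 FPKM in MEP and of 84.9, 182, 66.8 and 399.6 FPKM in CMP. Each primary gene of these was lower, and each secondary gene higher, in MEP. Most of them were too abundant for their libraries to be recovered. Of the 6 primary genes 3 were tested in MEP against CMP, and Ctsg fell (-3.60, SE 1.10, adjusted p = 0.0349), a call lost with any 1 of the 4 libraries left out (adjusted p = 0.105 to 0.157) and with median-of-ratios (-2.84) and quantile scaling (-3.44). Of the 9 secondary genes 2 were tested, and both rose, Mmp9 (5.29, SE 0.98) and Mmp8 (4.54, SE 0.83), as they did under the 3 other scalings. The primary and secondary counts stand beside 24.1% of all genes lower and 7.53% higher. In CMP library A the secondary genes were over library B, as with Ltf at 148 FPKM in A and 22.1 FPKM in B. Cebpe was higher in A too (32.5 FPKM, against 21.3 FPKM in B), but so was every other factor. Cebpb, for example, was at 23.5 FPKM in A and 15.3 FPKM in B.

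**Figure D5:**
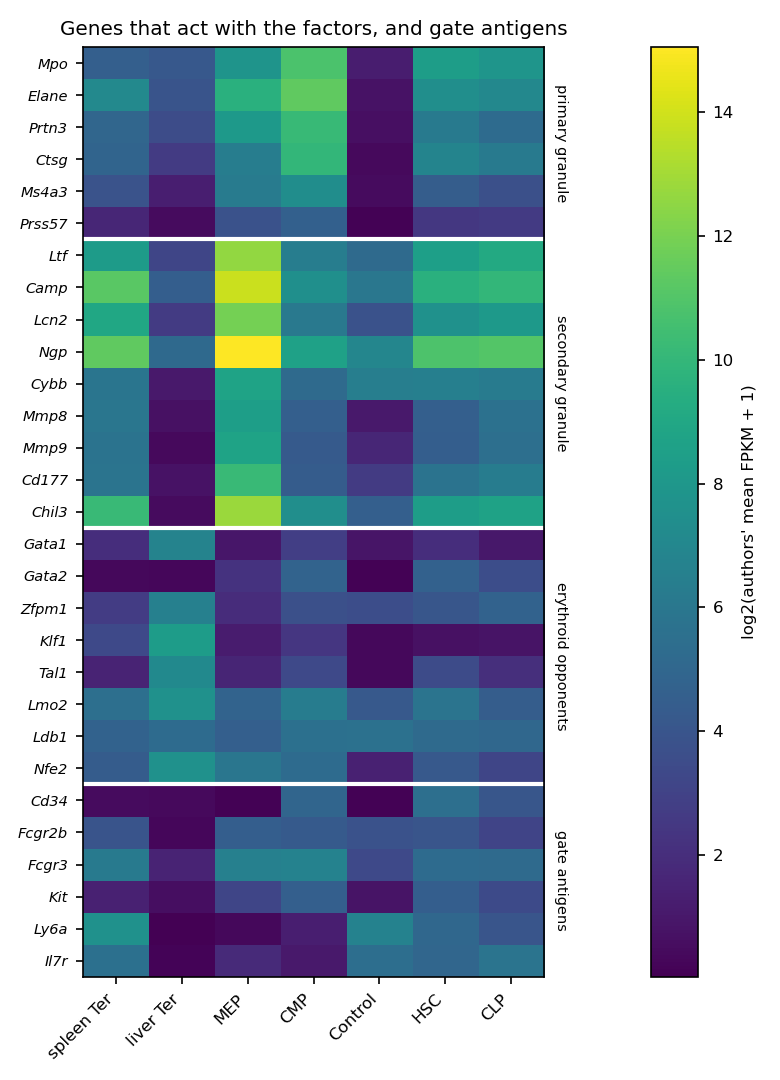
Authors' mean levels, as log2(FPKM + 1), of primary granule genes, secondary granule genes, erythroid opponents of PU.1 and antigens of the sorting gates (rows, in blocks) in the 7 groups (columns). Ngp reaches 34069 FPKM in MEP, Elane 2673 FPKM in CMP, and Klf1 317 FPKM in liver Ter.

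Of 10 inflammatory genes that C/EBP beta and delta act on, 8 were tested. In spleen Ter against liver Ter 7 rose, beside 43.5% of all genes (median 3.14, all genes 0.81), led by Il1b (8.31, SE 0.89), Cxcl2 (7.71, SE 0.72) and Ccl3 (4.72, SE 0.31). Socs3 (1.48) was not called there under the 3 other scalings (0.21 to 0.69), nor without spleen Ter library B (0.85) or either liver Ter library. Over MEP, Il1b (4.46, SE 0.89), Cxcl2 (4.18, SE 0.72) and Socs3 (2.64, SE 0.43) rose in spleen Ter, and Tnf fell (-1.68). These calls stand beside 23.5% of all genes higher and 19.6% lower. The list's median over MEP was 0.24, beside 0.10 for all genes. Il1b was at 431 and 236 FPKM in spleen Ter, 0.0184 and 0 FPKM in liver Ter, 23.6 and 7.60 FPKM in MEP, and 12.2 and 1.09 FPKM in CMP. Spleen Ter, the group with the most Cebpb, also had the highest Il1b and Cxcl2 of the 4 groups, and the 2 spleen Ter libraries differed more in these genes than in Cebpb. Il6, a textbook C/EBP beta target, was at 0.818 and 0.878 FPKM in spleen Ter and lower than the 9.34 and 5.99 FPKM of CMP.

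Set against the CD45+ Control cells of tumour-bearing spleens, with no test, spleen Ter had a mean at least 2-fold over Control for 4 of the 8 factors, Cebpb (8.04-fold on the FPKM + 1 scale), Cebpd (6.68-fold), Cebpe (4.75-fold) and Spi1 (3.56-fold). Gfi1 was the 1 factor at least 2-fold lower (2.03-fold), and 41.9% of all genes differed by as much (13.5% higher and 28.4% lower). The Cebpe value rests on library A, since without it the log2 ratio is 0.42. So does the Gfi1 value, with 2.12 FPKM in library A, 4.72 FPKM in library B and a mean of 7.99 FPKM in Control. Cebpz was 1.96-fold lower, just under the limit. The columns were made by different procedures: processed pseudogenes hold 0.913% of the FPKM in spleen Ter and 8.02% in Control.

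Against HSC, spleen Ter was at least 2-fold higher in Cebpb and lower in Cebpa, Cebpe and Cebpg, where 48.3% of all genes differed by as much (14.2% higher and 34.1% lower). Against CLP it was higher in Cebpb and Spi1 and lower in Cebpa, Cebpe, Cebpg and Gfi1 (51.3%, with 15.5% higher and 35.9% lower). The Cebpe ratios rest on spleen Ter library B: without it they were -0.32 against HSC and -0.76 against CLP on the log2 scale, under the 2-fold limit in both. The Gfi1 value against CLP rests on library A (-0.74 without it). Cebpa had the largest ratio against HSC (13.3-fold on the FPKM + 1 scale), with means of 0.951 FPKM in spleen Ter and 25.0 FPKM in HSC. Against CLP, Cebpb (9.73-fold higher) and Cebpa (9.05-fold lower) had the largest. Control was at least 2-fold lower than HSC in 6 factors and higher in 0 (26.7% of all genes, with 10.5% higher and 16.2% lower). Against CLP it was lower in 4 and higher in 0 (28.2%, with 11.1% higher and 17.0% lower). Cebpa and Cebpe led both, with Cebpa at 2.27 FPKM and Cebpe at 1.53 FPKM in Control.

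HSC and CLP differed by under 2-fold in 7 of the 8 factors. Cebpb was the 1 factor that differed by 2-fold or more (58.4 FPKM in HSC, against 16.3 FPKM in CLP), where 5.54% of all genes did (3.09% higher and 2.45% lower). Cebpz stood at 31.1 FPKM in HSC and 31.3 FPKM in CLP, and Cebpe, a late neutrophil gene, at 24.8 FPKM in HSC and 34.1 FPKM in CLP. S100a9, Ltf and Camp were present in both columns, with Camp at 767 FPKM in HSC and 1029 FPKM in CLP.

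The genes whose levels ran closest to each factor were found among genes that reach 5 FPKM, as the highest Pearson's r over the 8 libraries on log2(FPKM + 1), which are 4 groups of 2. Cebpa was followed by Myb (r = 0.997), at 1.67 and 1.74 FPKM in spleen Ter, 0.557 and 0.709 FPKM in liver Ter, 10.4 and 9.87 FPKM in MEP, and 47.9 and 43.9 FPKM in CMP. Cebpe was followed by Fcnb (r = 0.987), which encodes a ficolin of neutrophil granules, and which was at 70.9 and 3.75 FPKM in the spleen Ter libraries and 677 and 708 FPKM in MEP. Cebpd was followed by Hdc (r = 0.996), the histamine-forming enzyme, Cebpb by Vgll4 (r = 0.998), Spi1 by Lrrfip1 (r = 0.999) and Gfi1 by Lrrc25 (r = 0.999). Cebpg was followed by Naa15 (r = 0.980) and Cebpz by Mdh2 (r = 0.993), a mitochondrial enzyme.

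Among the factors themselves, r over the 8 libraries was highest for Cebpd with Spi1 (0.95) and with Cebpe (0.94), and lowest for Cebpe with Cebpg (-0.30). Cebpa had its highest r with Gfi1 (0.84) and its lowest with Cebpb (0.14). The points are 4 groups of 2 libraries, so each value mostly sets group against group.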

How the data were processed

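RNA was sequenced from 14 samples in 7 groups of 2. Per the labels' protocols, TruSeq libraries were made from total RNA; per the submitters' processing notes the genome build is mm10. The sources used here do not name the aligner, counter, annotation or the strand of the counting. The authors deposited 1 mean FPKM per gene and group; the unit was read from the values.

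In the spleen Ter, liver Ter, MEP and CMP columns each mean is the average of 2 whole fragment counts scaled by length and depth, so the 2 libraries were recovered from its digits; 89.3% to 92.2% of low values lay on whole steps in these columns (tolerance 0.0005 fragments) and 2.74% to 5.57% in the others. Of the 14049 genes whose mean reached 1 FPKM in 1 or more of the 4, 13186 (93.9%) gave values for all 8 libraries, among them all 8 factors; for Cebpe, Cebpz and Gfi1 the length (1238, 4074 and 3246 bases) was found from the steps, and for the others it is the exon length in GENCODE M21. Recovered genes hold 30.2% to 59.0% of a library's fragments, since the most abundant genes could not be recovered. The recovery was tried on simulated counts of already recovered genes with annotated lengths, and the fit on simulated libraries of equal spread. Lengths found from the steps, and the wider spread between the spleen Ter libraries, were thus not covered. 

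The 8 libraries were compared on log2(FPKM + 1) with limma (version 3.58.1, R version 4.3.3), using eBayes with a trend, with 1 coefficient per group, 4 residual and 2.6 prior degrees of freedom, and Benjamini-Hochberg adjustment over the 12385 genes that reached 1 FPKM in 2 libraries or more. For each gene the spread is pooled over the 4 groups, so for a gene that differs between the spleen Ter libraries the SE can be too small for spleen Ter and too large for MEP against CMP. Ratios with Control, HSC and CLP are of the authors' means, (mean + 1) over (mean + 1), with no test. Genes named are the factors, the 3 largest changes of each list, genes whose role stands next to a factor, and the gene most like each factor. The factors and lists were chosen with earlier results of these data known. Ptprc and Ly76 were not analysed here. Tested alternatives were the pseudocount, the filter, 3 scalings, the trend and leaving out each library.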

Additional observations from a re-analysis of the deposited data

How the results depend on the processing

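Of the 33 calls of factors in the 6 tested comparisons, 33 were also made in the same direction with a pseudocount of 0.1, with a filter of 5 FPKM and without the trend, 32 without a filter, 27 with median-of-ratios scaling, 29 after quantile normalization and 29 when globin genes were left out of the totals. No called factor changed sign under these settings. Counts of called factors when 1 library is left out ranged from 3 to 5 in spleen Ter against CMP (3 with all libraries, 5 without spleen Ter library A) and from 1 to 3 in MEP against CMP (4 with all, 1 without MEP library A, 2 without MEP library B or CMP library B). For spleen Ter against Control the number at least 2-fold apart, 5 with both spleen Ter libraries, was 3 when library A was left out and 6 when B was. A lone library is assumed to vary like the other groups.

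Differences that were not called turned round in these cases: for Cebpg in spleen Ter against liver Ter, -1.10 (median-of-ratios), -0.90 (quantile), -0.69 (totals without globin genes), -0.17 without spleen Ter library B and -0.002 without liver Ter library B (range -0.17 to 0.26 over libraries left out); for Cebpa in the same comparison -0.44 (quantile); in spleen Ter against CMP 0.24 for Cebpz and 0.32 for Spi1 (median-of-ratios); for Cebpg in liver Ter against CMP 0.92 (median-of-ratios) and 0.61 (quantile); and in MEP against CMP 0.05 for Cebpz (median-of-ratios) and for Cebpb -0.23 (totals without globin genes) and -0.02 without CMP library B (range -0.02 to 0.57). The cause was not tested.

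Scaling moves the split of all calls: in spleen Ter against liver Ter 78.8% of calls were higher, against 51.8% with median-of-ratios factors, 49.0% after quantile normalization and 61.5% with globin genes left out of the totals. In liver Ter against CMP 11.7% were, against 52.4%, 47.8% and 19.5% under the same settings. The shares were 54.4% against 49.1%, 47.6% and 62.9% in spleen Ter against MEP, 33.8% against 57.4%, 46.6% and 26.0% in spleen Ter against CMP, 20.5% against 49.5%, 49.5% and 49.7% in liver Ter against MEP, and 23.8% against 61.7%, 49.5% and 10.6% in MEP against CMP. A split nearer to even under median-of-ratios factors or quantile normalization is largely set by these methods. It does not show which scaling is right. The scalings, and the refits without 1 library, were applied to the gene lists after the data had been seen. No paired analysis was possible because the recovered libraries carry no replicate number. Precision is limited by 2 libraries a group, by fragment counts of 11 to 48 for Cebpa, Cebpb, Cebpd, Cebpe and Gfi1 in liver Ter, and by the abundant granule genes that could not be recovered.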
